A study of Mus musculus with 6 samples.

Results

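The genes described here are 56 genes that build and operate the mitotic apparatus: motors of the spindle, proteins of the kinetochore and centromere, the spindle checkpoint, mitotic kinases, cytokinesis factors, regulators of anaphase and the condensin complex. They were chosen by gene symbol from a list, and all 56 were found among the 55401 genes of the deposited table. Each had enough counts to be tested, so no member was lost to the filter on low counts. RNA came from BV2, an immortalised mouse microglial cell line, treated with vehicle (the Vehicle group, 3 libraries) or with lipopolysaccharide, a bacterial cell wall glycolipid that activates macrophages (the LPS group, 3 libraries). The labels gave no genotype change, dose or duration. The stated aim was to find regulators of microglial activation and inflammation.

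At mitosis, condensin and topoisomerase compact the replicated chromosomes, kinesins and other microtubule-binding proteins shape a bipolar spindle, and kinetochores assembled on each centromere attach the chromosomes to it. The spindle checkpoint holds back the anaphase-promoting complex, a ubiquitin ligase, until every kinetochore is attached, after which securin is destroyed, separase cuts cohesin and the cell divides by cytokinesis. Many of these genes are transcribed only late in the cell cycle, so their RNA is abundant in dividing populations and scarce in resting ones. In bulk RNA, fewer cells in mitosis and less RNA of these genes per cell cannot be told apart.

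Library totals ran from 45969690 to 59023474 estimated counts, and levels are given as CPM, counts scaled to a common library total by TMM. Of 13 markers of microglia and macrophages, Csf1r, the receptor for colony stimulating factor 1, and Laptm5 were at 87.0 CPM or more in the mean of each group, while Aif1 was between 1.76 and 4.58 CPM and Cx3cr1 between 0.663 and 2.5 CPM across libraries. In the test described below, 4 genes of this list were lower with LPS (30.8%, against 10.9% of all tested genes). Csf1r and Laptm5 were among them, with log2 fold changes of -1.41 and -0.50. Adgre1 alone was higher (0.72), which is 7.69% of the list against 12.7% of all tested genes, and 8 did not pass. The summed level of 6 fibroblast markers stayed at or below 0.78 CPM in every library, and that of 6 astrocyte markers ran from 4.76 to 8.34 CPM in Vehicle and from 2 to 6.14 CPM in LPS. For 6 oligodendrocyte markers the sums were 4.83 to 6.59 CPM in Vehicle and 1.12 to 6.59 CPM in LPS, and for 6 neuron markers 24.3 to 29.5 CPM and 30.6 to 45.1 CPM, mostly Syn1; their part in the results was not tested. All 13 mitochondrially encoded genes were listed at 0 in every library, so their share could not serve as a measure of RNA quality.

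Transcripts of nearly the whole set were lower with LPS. Of the 56 genes, 48 were lower with LPS and 0 were higher in edgeR's quasi-likelihood test, while 8 did not pass. A gene passed where its p, adjusted by the method of Benjamini and Hochberg over the 16371 tested genes, was under 0.05. Over all tested genes 10.9% were called lower and 12.7% higher. At an unadjusted p under 0.05 edgeR gave 50 members lower and 0 higher, and DESeq2, limma voom and the other alternatives run also gave 0 higher. In 53 of the 56 genes each LPS library lay below each Vehicle library, against 20.0% of all tested genes. The log2 fold change was below 0 in 55 members, against 51.3% of all tested genes. Its median was -0.93, against -0.02 over all tested genes, and members ran from -1.78 for Mki67 to 0.05 for Pttg1. A fall of at least 2-fold was called for 21 members, against 3.35% of all tested genes, and 24 called members had log2 fold changes between -1 and -0.5.

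Summed over the 56 genes, the level was 5636, 6010 and 6153 CPM in Vehicle 1, 2 and 3 and 3049, 3230 and 3753 CPM in LPS 1, 2 and 3. The LPS mean was 56.4% of the Vehicle mean, and the groups did not overlap. The labels did not say whether libraries of a group were separate cultures, so p-values measure the spread between these libraries. Leaving out a library left between 38 (without Vehicle 2) and 49 (without LPS 3) members lower, and 38 of the 48 kept their call under each of the 17 alternatives run. The background count of 1782 lower genes dropped to 1150 without Vehicle 1, 1053 without Vehicle 2 and 1153 without LPS 2, and the 2082 higher genes to 1291 without Vehicle 2.

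**Figure D1:**
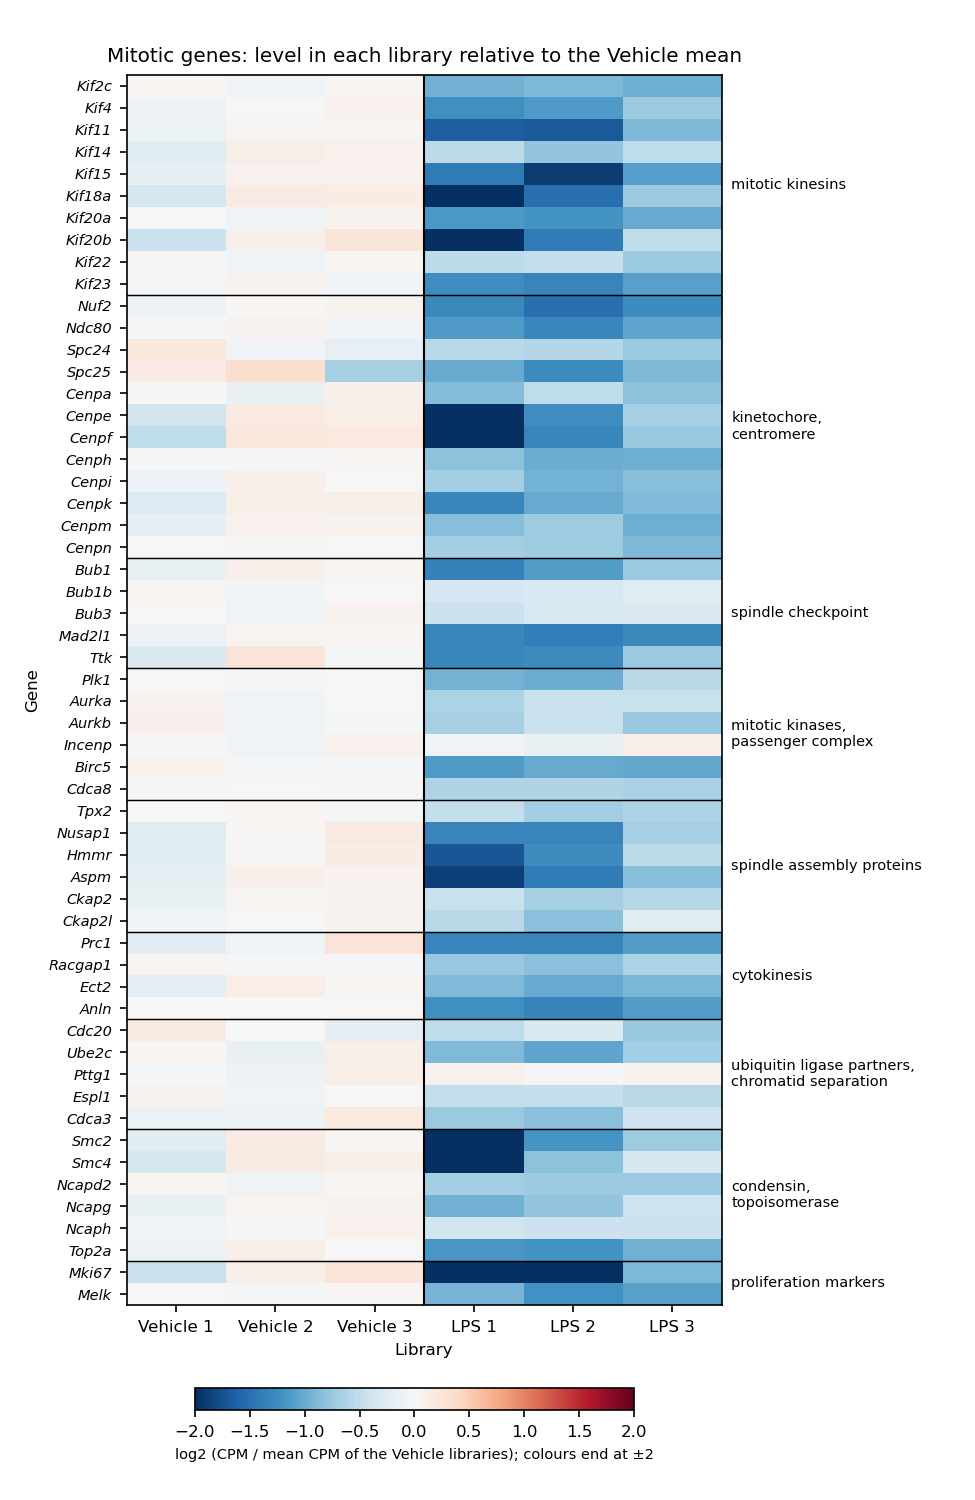
Level of each of the 56 mitotic genes (rows, grouped by role) in each library (columns) as the log2 of its CPM over the mean of the 3 Vehicle libraries. Nearly every row is blue in the LPS columns, Incenp and Pttg1 stay near white, and the darkest cells of LPS 1 belong to Kif18a, Kif20b, Cenpe, Cenpf, Smc2, Smc4 and Mki67.

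The promoters of these genes also have letters in common. Late cell cycle genes are known for the cell cycle homology region, a short element bound by the MuvB core of the DREAM complex, and for CCAAT boxes bound by NF-Y. Windows from 250 bases before to 50 bases after the RefSeq start (GRCm38.p6) were given for 50 of the 56 members. Incenp, Aurkb, Kif20a, Tpx2, Spc24 and Smc4 had none. The cell cycle homology region, searched as TTTGAA on both strands, was found in 36 of the 50 members (72.0%), against 20.2% of 27025 genes with a window. The box, searched as CCAAT on both strands, was found in 37 members (74%), against 41.1% of all genes, and both motifs stood in the same window in 31 members (62.0%), against 7.97%. In 1 of 55 member windows the motifs overlapped. The following stretches are the 150 bases before the start, read 5′ to 3′ on the gene's strand, with both motifs in capitals. They were chosen for holding both motifs, as the member of a role with the largest called fall among such members, so they do not show how common the layout is. The mitotic kinases and passenger complex and the proliferation markers had no such member. Each stretch ends at the start, so an element downstream of it, as in Plk1 at 30 and Kif23 at 2, lies outside. Pttg1, which was not called, is added because its level hardly changed with LPS. It does not stand for the uncalled members, since the windows of Mki67, Cenpf and Smc2, also not called, held both motifs.
Kif11, chr19:37376232-37376381 (+ strand): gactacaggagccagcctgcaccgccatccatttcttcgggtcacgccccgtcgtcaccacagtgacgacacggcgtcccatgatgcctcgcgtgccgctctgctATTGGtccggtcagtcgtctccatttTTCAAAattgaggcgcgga
Prc1, chr7:80294326-80294475 (+ strand): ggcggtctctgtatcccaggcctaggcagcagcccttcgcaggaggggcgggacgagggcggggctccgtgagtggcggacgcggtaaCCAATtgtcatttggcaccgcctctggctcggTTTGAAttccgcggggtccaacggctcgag
Top2a, chr11:99024190-99024339 (- strand): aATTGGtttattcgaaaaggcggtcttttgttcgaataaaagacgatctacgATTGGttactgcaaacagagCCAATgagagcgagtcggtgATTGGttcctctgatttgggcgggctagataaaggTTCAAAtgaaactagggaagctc
Ube2c, chr2:164769779-164769928 (+ strand): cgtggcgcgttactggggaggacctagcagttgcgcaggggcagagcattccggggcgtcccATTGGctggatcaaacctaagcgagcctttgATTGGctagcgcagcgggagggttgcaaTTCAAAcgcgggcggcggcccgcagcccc
Cenpn, chr8:116921590-116921739 (+ strand): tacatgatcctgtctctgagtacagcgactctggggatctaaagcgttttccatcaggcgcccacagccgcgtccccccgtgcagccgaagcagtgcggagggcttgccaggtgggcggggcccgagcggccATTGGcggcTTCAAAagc
Ckap2, chr8:22185820-22185969 (- strand): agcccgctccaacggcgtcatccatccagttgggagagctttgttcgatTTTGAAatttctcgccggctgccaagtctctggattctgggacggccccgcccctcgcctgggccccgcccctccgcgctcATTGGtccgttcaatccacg
Bub3, chr7:131560220-131560369 (+ strand): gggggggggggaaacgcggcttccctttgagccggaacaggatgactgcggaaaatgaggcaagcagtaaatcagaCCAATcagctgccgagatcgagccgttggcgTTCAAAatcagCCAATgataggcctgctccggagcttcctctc
Pttg1, chr11:43425982-43426131 (- strand): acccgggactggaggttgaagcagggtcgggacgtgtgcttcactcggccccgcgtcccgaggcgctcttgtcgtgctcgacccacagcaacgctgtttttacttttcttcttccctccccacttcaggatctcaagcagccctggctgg

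In the stretches of Kif11, Prc1, Top2a and Ube2c, the TTTGAA element or its reverse complement began at positions -19, -30, -23 and -29 from the start, downstream of the capitalised CCAAT boxes. In Cenpn it began at -9 and in Bub3 at -43, between a pair of boxes, while in Ckap2 it lay farther upstream, at -101. The stretch of Pttg1 held neither motif, and neither did the rest of its window. From 60 bases before the start to the end of the window, a range chosen after the positions were seen, the element was found in 31 of 50 members (62.0%), against 6.36% of all genes. In the whole window it was found in 8 of 9 kinesin genes, 4 of 4 cytokinesis genes and 5 of 11 kinetochore genes.

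Members fell with and without the element. The median log2 fold change was -0.91 in the 36 members with it, of which 32 were lower, and -1.06 in the 14 without it, of which 12 were lower. For the CCAAT box the medians were -0.83 with it and -1.16 without. Nuf2, Kif18a, Nusap1, Ncaph, Mad2l1, Birc5 and Melk, which had neither motif in their windows, were lower with LPS. A match is a description of these letters and not evidence of binding.

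**Figure D2:**
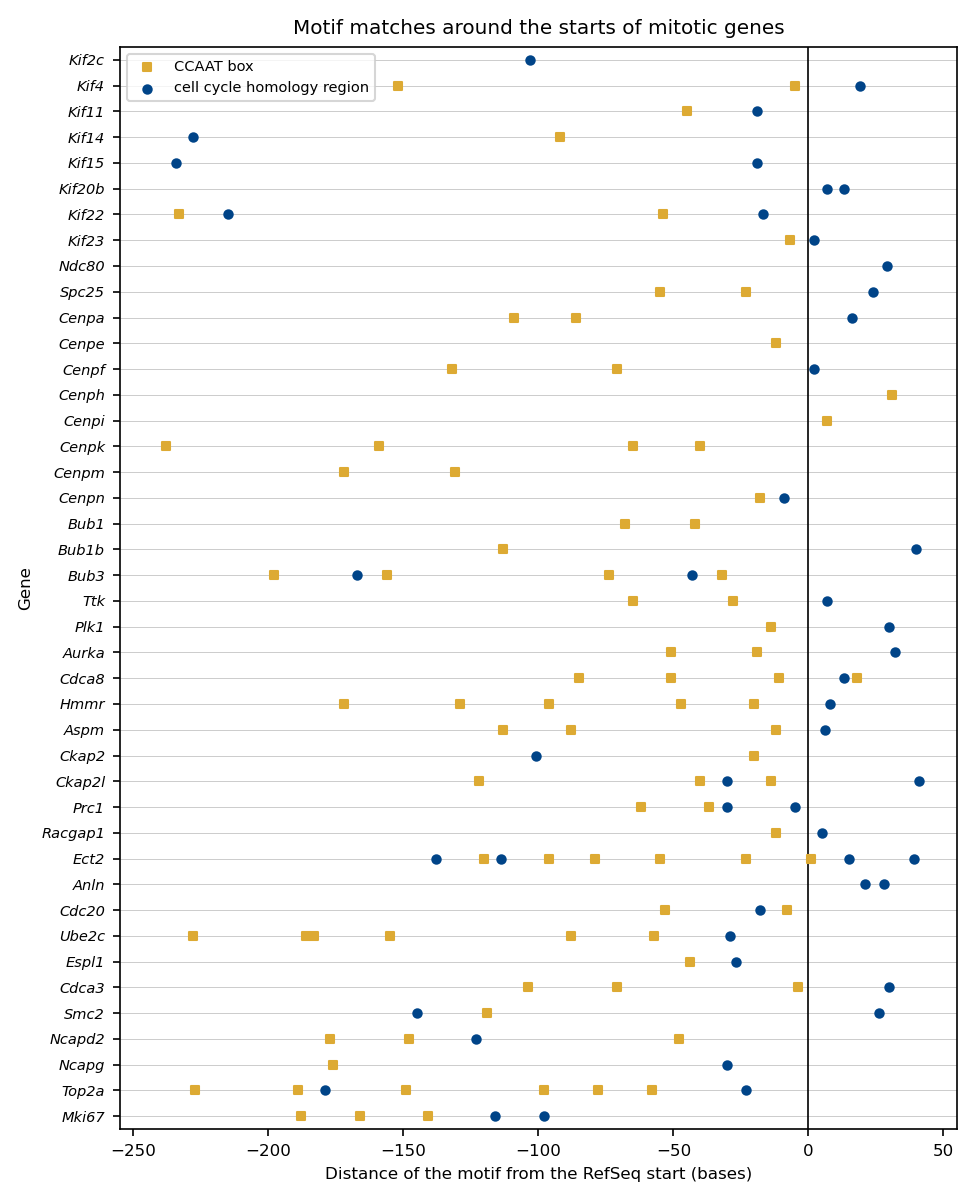
Position of each motif match (x axis, bases from the RefSeq start at 0) for the members with at least 1 match (rows), with matches in any of a gene's windows pooled. Dark circles (cell cycle homology region) gather around the start, at a median position of -9, and yellow squares (CCAAT box) upstream of it, at a median of -71.

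Of the 10 mitotic kinesin genes 9 were lower, with a median log2 fold change of -1.16. Kif15, which backs up Kif11 in keeping the spindle bipolar, had 38.1, 46.2 and 46.1 CPM in Vehicle 1, 2 and 3 and 16.3, 11.7 and 20.3 CPM in LPS 1, 2 and 3. All its LPS libraries were lower, with a log2 fold change of -1.43 ± 0.19 (SE, n = 3 per group, adjusted p from edgeR = 0.0013). Kif11, the motor that pushes spindle poles apart, had 112, 127 and 127 CPM in Vehicle and 38.9, 37.9 and 65.6 CPM in LPS. Its log2 fold change was -1.36 ± 0.21 (adjusted p from edgeR = 0.00364), and LPS 3 stood above the other LPS libraries without reaching Vehicle. Kif18a, which damps chromosome movements at the spindle equator, had 20.5, 29.2 and 29.0 CPM in Vehicle and 5.21, 9.17 and 15.9 CPM in LPS, a log2 fold change of -1.37 ± 0.36. The call (adjusted p from edgeR = 0.0336) failed when Vehicle 1, 2 or 3 or LPS 2 was omitted, with adjusted p up to 0.123, and with no filter on low counts (0.0639).

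The steadiest falls among the kinesins were in Kif23, Kif20a and Kif2c. Kif23, the motor of the centralspindlin complex, had 117, 126 and 115 CPM in Vehicle and 50.6, 47.7 and 56.2 CPM in LPS. Kif20a, which carries the chromosomal passenger complex to the midzone, had 184, 173 and 194 CPM in Vehicle and 83.3, 80.2 and 91.7 CPM in LPS. Kif2c, a microtubule depolymerase at centromeres, had 82.6, 76.6 and 82.5 CPM in Vehicle and 41.5, 43.4 and 41.0 CPM in LPS. In each of these genes the groups were far apart relative to their spread, with edgeR adjusted p of 0.000103, 0.000119 and 0.000262. Kif4, a chromosome-bound motor, had -1.01 ± 0.14. Kif14 and Kif22 fell least, with log2 fold changes of -0.59 ± 0.14 and -0.58 ± 0.11, and Kif14 was no longer called when Vehicle 2, Vehicle 3 or LPS 2 was left out (adjusted p from edgeR up to 0.0829).

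Of 12 kinetochore and centromere genes 10 were lower, with a median of -0.99. The Ndc80 complex, which forms the microtubule-binding arm of the kinetochore, is encoded by Ndc80, Nuf2, Spc24 and Spc25, and all 4 were lower. Nuf2 had 53.1, 58.2 and 60 CPM in Vehicle and 23.3, 20 and 23.8 CPM in LPS, a log2 fold change of -1.35 ± 0.12. Ndc80 had 46.8, 50 and 45.4 CPM in Vehicle and 21.7, 19.1 and 22.7 CPM in LPS, or -1.16 ± 0.11. In both genes the groups were tight and far apart. Spc25 had 54.9, 60.7 and 30.8 CPM in Vehicle and 24.2, 20.2 and 26.1 CPM in LPS, so that Vehicle 3 lay close to the LPS libraries. Its log2 fold change of -1.06 ± 0.25 (adjusted p from edgeR = 0.0215) lost the call when any library but Vehicle 3 was omitted, with adjusted p up to 0.0873, and with a block for the replicate number (0.0571). Spc24 had 14.9, 12.3 and 11.5 CPM in Vehicle and 8.77, 8.58 and 7.72 CPM in LPS, or -0.63 ± 0.16, and was no longer called when Vehicle 1 or 2 or LPS 1 or 2 was left out (adjusted p from edgeR up to 0.101).

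Genes of the inner kinetochore, the layer that sits on centromeric chromatin, were lower too. Cenpk, Cenph, Cenpm, Cenpi and Cenpn had log2 fold changes of -1.05 ± 0.20, -0.92 ± 0.12, -0.83 ± 0.15, -0.82 ± 0.12 and -0.76 ± 0.11. Cenph had 25.4, 25.1 and 26.5 CPM in Vehicle and 14.6, 12.9 and 13.1 CPM in LPS, with tight groups that did not overlap. Cenpa, the histone variant that marks the centromere, had 82.6, 73.1 and 86.9 CPM in Vehicle and 44.4, 56.6 and 45.6 CPM in LPS, or -0.73 ± 0.12 (adjusted p from edgeR = 0.00403). Cenpe and Cenpf, large proteins of the fibrous corona, had a wide spread. Cenpe, a kinetochore motor, had 52.1, 76.2 and 74 CPM in Vehicle and 7.41, 28.6 and 42.4 CPM in LPS. Cenpf had 51.8, 84.5 and 83.7 CPM in Vehicle and 6.53, 29.8 and 43.4 CPM in LPS. In both genes the groups did not overlap, yet neither passed the test, with log2 fold changes of -1.36 ± 0.57 and -1.46 ± 0.62 and edgeR adjusted p of 0.152 and 0.157.

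All 5 spindle checkpoint genes were lower, with a median of -1.05. Mad2l1, which encodes the Mad2 protein that seizes Cdc20 at unattached kinetochores, had 75.2, 84.3 and 84.3 CPM in Vehicle and 33.0, 31.1 and 33.4 CPM in LPS. Its log2 fold change of -1.32 ± 0.10 came with the smallest adjusted p of the set (6.66e-05, from edgeR). Ttk, the kinase Mps1 that starts checkpoint signalling, had 37.5, 55.1 and 45.4 CPM in Vehicle and 18.6, 19.0 and 27.4 CPM in LPS, or -1.09 ± 0.20. Bub1, a kinase scaffold at the kinetochore, had 116, 138 and 131 CPM in Vehicle and 49.9, 58.8 and 76.4 CPM in LPS, or -1.05 ± 0.16.

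Bub3 and Bub1b, which together with Mad2 and Cdc20 make up the mitotic checkpoint complex, had smaller log2 fold changes. Bub3 had 166, 159 and 175 CPM in Vehicle and 124, 135 and 137 CPM in LPS, a log2 fold change of -0.34 ± 0.08 (adjusted p from edgeR = 0.022). Bub1b had 215, 198 and 205 CPM in Vehicle and 164, 167 and 176 CPM in LPS, or -0.29 ± 0.08 (adjusted p from edgeR = 0.0336). The groups did not overlap in either gene. With 1 library left out the log2 fold change ran from -0.37 to -0.30 for Bub3 and from -0.32 to -0.25 for Bub1b, but the calls were often lost. Bub3 failed when Vehicle 1, 2 or 3 or LPS 1 was left out (adjusted p from edgeR up to 0.0764) and Bub1b without any library but LPS 3 (up to 0.132) or with a block for the replicate number (0.0584). Without Vehicle 1, Vehicle 2, Vehicle 3 or LPS 1, 3 of the 5 checkpoint genes were lower.

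Of 6 genes of mitotic kinases and the chromosomal passenger complex 5 were lower, with a median of -0.61. The passenger complex joins the kinase Aurora B to Incenp, survivin and borealin, and 3 of these 4 genes were lower. Birc5, which encodes survivin, had 95.9, 88.5 and 89.6 CPM in Vehicle and 41.7, 45.3 and 44.6 CPM in LPS, a log2 fold change of -1.06 ± 0.09 (adjusted p from edgeR = 0.000143). Cdca8, which encodes borealin, had 127, 131 and 132 CPM in Vehicle and 86.0, 86.1 and 83.0 CPM in LPS, or -0.61 ± 0.08. Aurkb had 96.9, 84.5 and 88.2 CPM in Vehicle and 57.0, 65.9 and 53.2 CPM in LPS, or -0.62 ± 0.11. Incenp, the scaffold of the complex, had 200.3, 196 and 218 CPM in Vehicle and 193, 185 and 221 CPM in LPS. Its groups overlapped and its log2 fold change was -0.04 ± 0.10 (adjusted p from edgeR = 0.823), with values from -0.13 to 0.02 over the alternatives. The difference in response between Incenp and its partners was not tested.

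Plk1, a kinase of mitotic entry, centrosome maturation and cytokinesis, had 151, 148 and 150.2 CPM in Vehicle and 77.7, 75.5 and 102 CPM in LPS, a log2 fold change of -0.81 ± 0.12 (adjusted p from edgeR = 0.00225). Aurka, the centrosomal Aurora kinase, had 148, 135 and 141 CPM in Vehicle and 90.5, 103 and 104 CPM in LPS, or -0.51 ± 0.09. Its LPS mean was 70.1% of the Vehicle mean, against 56.9% for Plk1.

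All 6 genes of spindle assembly proteins were lower, with a median of -0.83, though only 3 were lower without Vehicle 2. Aspm, which focuses spindle poles, had 42.3, 51.5 and 50.5 CPM in Vehicle and 13.2, 18.3 and 26.7 CPM in LPS, a log2 fold change of -1.31 ± 0.23. Hmmr, a microtubule-binding partner of Tpx2 and Aurora A, had 109, 128 and 139.7 CPM in Vehicle and 38.6, 52.8 and 87.7 CPM in LPS, or -1.08 ± 0.29. The call of Hmmr (adjusted p from edgeR = 0.0431) did not hold when Vehicle 1, 2 or 3 or LPS 2 was omitted, with adjusted p up to 0.145, and with no filter on low counts (0.0888). Nusap1, which bundles microtubules near chromosomes, had 64.2, 77.9 and 86.8 CPM in Vehicle and 30.4, 30.5 and 48.2 CPM in LPS, or -1.07 ± 0.20. Tpx2, the activator of Aurora A, was lower by less but in a tight pattern, with 266, 272 and 262 CPM in Vehicle and 192, 165 and 174 CPM in LPS. Ckap2 and Ckap2l had log2 fold changes of -0.55 ± 0.12 and -0.52 ± 0.15. Ckap2 lost its call without Vehicle 2 (adjusted p from edgeR = 0.0536), and Ckap2l without any library but LPS 3 (up to 0.103).

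All 4 cytokinesis genes were lower, with a median of -1.08, and each kept its call under every alternative. Prc1, which bundles the microtubules of the central spindle, had 76.7, 84.5 and 107 CPM in Vehicle and 36.4, 35.8 and 41.3 CPM in LPS, a log2 fold change of -1.24 ± 0.14. Anln, the anillin scaffold of the contractile ring, had 114, 116 and 115 CPM in Vehicle and 49.1, 45.6 and 53.1 CPM in LPS, or -1.22 ± 0.09 (adjusted p from edgeR = 7.04e-05). The Vehicle libraries agreed closely for this gene, and the LPS libraries stood far below them. Ect2, the exchange factor that switches on RhoA at the cell equator, had 59.6, 74.6 and 69.9 CPM in Vehicle and 36.8, 33.8 and 36.1 CPM in LPS, or -0.93 ± 0.11. Racgap1, the partner of Kif23 in centralspindlin, had 232, 219 and 221 CPM in Vehicle and 133, 125 and 145 CPM in LPS, or -0.74 ± 0.09.

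Of 5 genes of the ubiquitin step and chromatid separation 4 were lower, by modest amounts, with a median of -0.52. Ube2c, the ubiquitin-conjugating enzyme of the anaphase-promoting complex, had 203, 179 and 214 CPM in Vehicle and 107, 95.2 and 122 CPM in LPS, a log2 fold change of -0.88 ± 0.12 (adjusted p from edgeR = 0.00118). Cdca3, a trigger of mitotic entry, had 80.7, 81.9 and 100.4 CPM in Vehicle and 52.2, 49.2 and 65.5 CPM in LPS, or -0.66 ± 0.14. Cdc20, the activator of the anaphase-promoting complex, had 230.1, 206 and 181 CPM in Vehicle and 144, 166 and 121 CPM in LPS, or -0.52 ± 0.14. The call (adjusted p from edgeR = 0.0258) failed when Vehicle 1, Vehicle 2 or LPS 1 was omitted, with adjusted p up to 0.0989. Espl1, which encodes separase, had 187, 171 and 178 CPM in Vehicle and 127, 129 and 122 CPM in LPS, or -0.50 ± 0.08.

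Pttg1, which encodes securin, the inhibitor that holds separase inactive until anaphase, did not pass the test. It had 36.7, 35.3 and 41.4 CPM in Vehicle and 40.2, 37.0 and 39.7 CPM in LPS, and the groups overlapped. Its log2 fold change was 0.05 ± 0.11 (adjusted p from edgeR = 0.796), from -0.04 to 0.11 over the alternatives. Incenp, Pttg1 and Smc4 were the 3 members whose groups overlapped. The difference between Pttg1 and Espl1 in response was not tested.

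Of 6 genes of condensin and topoisomerase 4 were lower, with a median of -0.80. Top2a, the topoisomerase that disentangles sister chromatids, had 291, 339 and 313 CPM in Vehicle and 140.2, 137 and 161 CPM in LPS, a log2 fold change of -1.11 ± 0.10 (adjusted p from edgeR = 0.000177). The subunits particular to condensin I were lower by smaller amounts. Ncapd2 had 168, 157 and 168 CPM in Vehicle and 102, 99.6 and 98.5 CPM in LPS, or -0.71 ± 0.08. Ncapg had 53.8, 60.9 and 61.4 CPM in Vehicle and 30.2, 34.0 and 44.0 CPM in LPS, or -0.70 ± 0.15. Its transcript has the lowest GC share of the set (34.8%), and with offsets for GC and length its log2 fold change was -0.36 ± 0.09 (adjusted p from edgeR = 0.0238). Ncaph had 121, 124 and 135 CPM in Vehicle and 96.7, 94.2 and 94.7 CPM in LPS, or -0.41 ± 0.08.

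The ATPase core that condensin I and II share is made of Smc2 and Smc4, and neither passed the test. Smc2 had 67.1, 87.1 and 79.4 CPM in Vehicle and 13.8, 34.5 and 47.4 CPM in LPS, a log2 fold change of -1.29 ± 0.41 (adjusted p from edgeR = 0.076). Smc4 had 107, 154 and 148 CPM in Vehicle and 33.5, 78.0 and 109 CPM in LPS, or -0.89 ± 0.43 (adjusted p from edgeR = 0.201), with LPS 3 just above Vehicle 1. Without LPS 1 the log2 fold change of Smc4 was -0.55 (adjusted p from edgeR = 0.118). DESeq2 called both lower, with adjusted p of 0.00163 and 0.0341. Smc2 was also called by edgeR without LPS 1 (0.0113), without LPS 3 (0.0473) or with a block for the replicate number (0.0454).

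Of the 2 proliferation markers 1 was lower. Melk, a kinase that peaks in mitosis, had 39.7, 39.4 and 41.3 CPM in Vehicle and 21.0, 17.4 and 18.9 CPM in LPS, a log2 fold change of -1.07 ± 0.12 (adjusted p from edgeR = 0.000457). Mki67, which encodes the Ki-67 coat protein of mitotic chromosomes, had the lowest log2 fold change of the set. It had 301, 445 and 484 CPM in Vehicle and 34.2, 103 and 221 CPM in LPS, or -1.78 ± 0.67 (adjusted p from edgeR = 0.121). Its LPS mean was 29.1% of the Vehicle mean and the groups did not overlap, but LPS 3 was 6.46 times as high as LPS 1. DESeq2 called it lower (adjusted p = 0.0363), while over the edgeR and voom alternatives it did not pass.

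**Figure D3:**
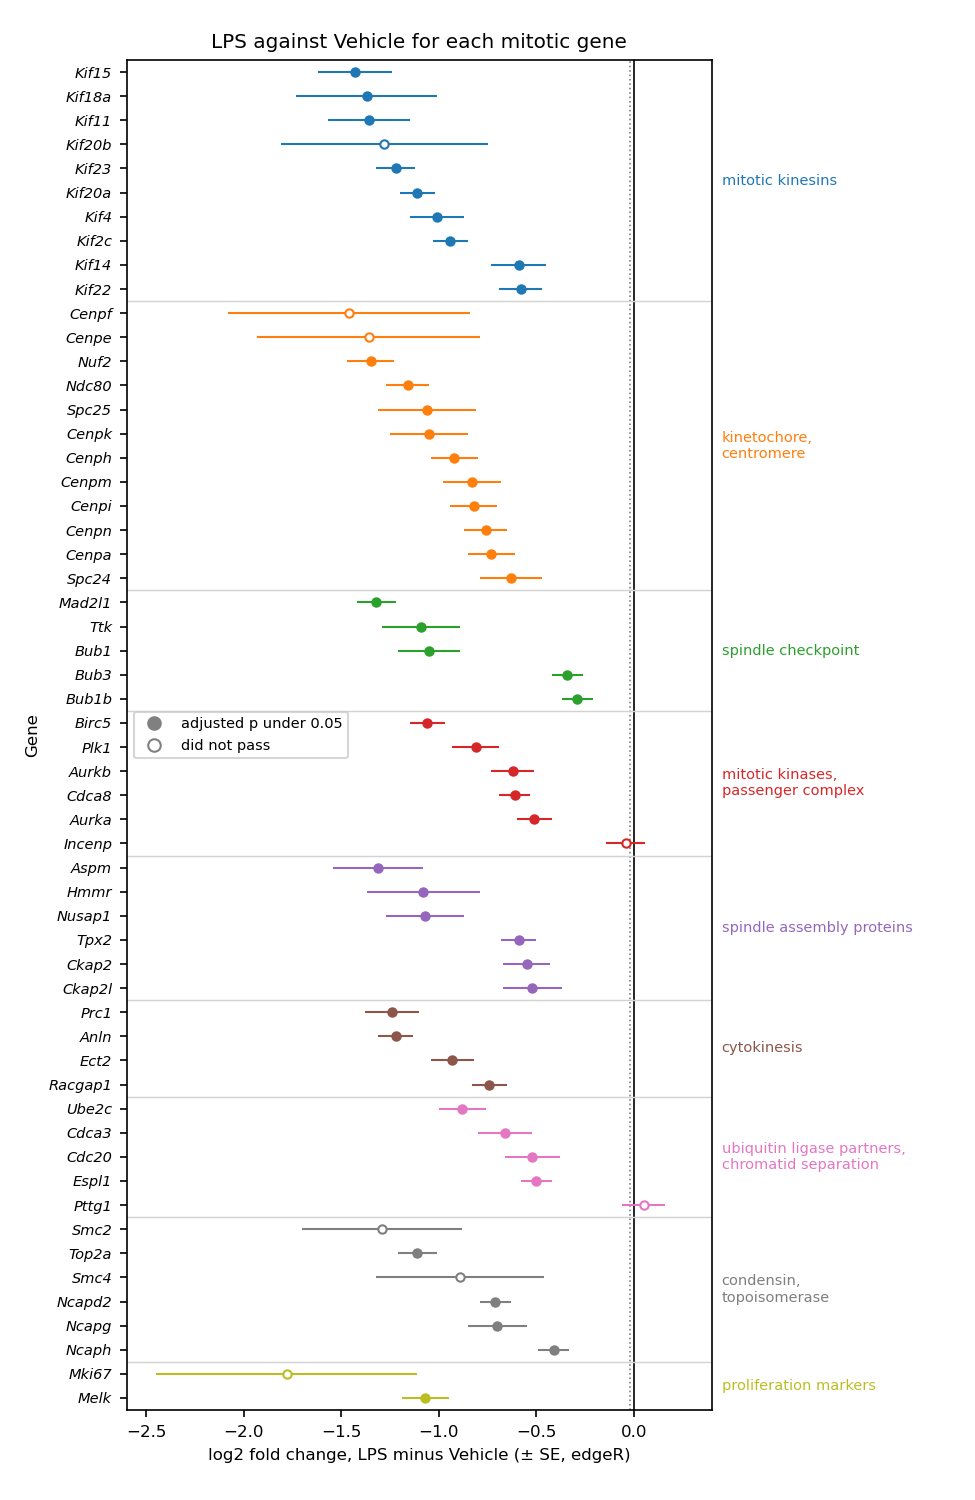
Log2 fold change of LPS minus Vehicle (points, with bars of ± SE from edgeR) for each of the 56 genes by role; the dotted line is the median of all tested genes, filled points passed the adjusted threshold and open points did not. All points but Pttg1 lie left of 0, and the open points with wide bars are Kif20b, Cenpf, Cenpe, Smc2, Smc4 and Mki67.

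The 8 genes that did not pass were of 2 kinds. Incenp and Pttg1 had tight groups that overlapped. Mki67, Cenpe, Cenpf, Kif20b, Smc2 and Smc4 had negative log2 fold changes with wide spread among the LPS libraries. Kif20b, a kinesin of late cytokinesis, showed the same layout as the others, with 47.9, 69.7 and 76.5 CPM in Vehicle and 9.65, 24.5 and 45.7 CPM in LPS (-1.28 ± 0.53, adjusted p from edgeR = 0.15). It was called without LPS 3 (0.0484) and with the replicate block (0.0394), and Cenpe without LPS 1 (-0.93 ± 0.23, 0.0345).

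The spread had a common pattern. In 9 members the highest LPS library was more than 2 times the lowest, namely these 6 with Kif18a, Hmmr and Aspm, and in all 9 the lowest was LPS 1. No member spread by more than 2 times among the Vehicle libraries, and 27 members spread by at most 1.2 times among the LPS libraries. Over all 56 members LPS 3 was the highest LPS library in 36, and Vehicle 1 the lowest Vehicle library in 31. The lowest LPS library was LPS 2 in 26 members and LPS 1 in 20, so a low LPS 1 did not hold across the set. No count over all tested genes was made beside these. Of the 10 members with the longest transcripts, 7 were among the 9 with this wide spread. Length here is that of the longest annotated transcript of a gene, which need not be the main one expressed. Cenpf and Mki67, with 11130 and 10061 bases, spread by 6.65 and 6.46 times. The other members of the 10 were Espl1, Mad2l1 and Kif14, with 6658, 7557 and 8943 bases, which spread by 1.06, 1.08 and 1.22 times.

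**Figure D4:**
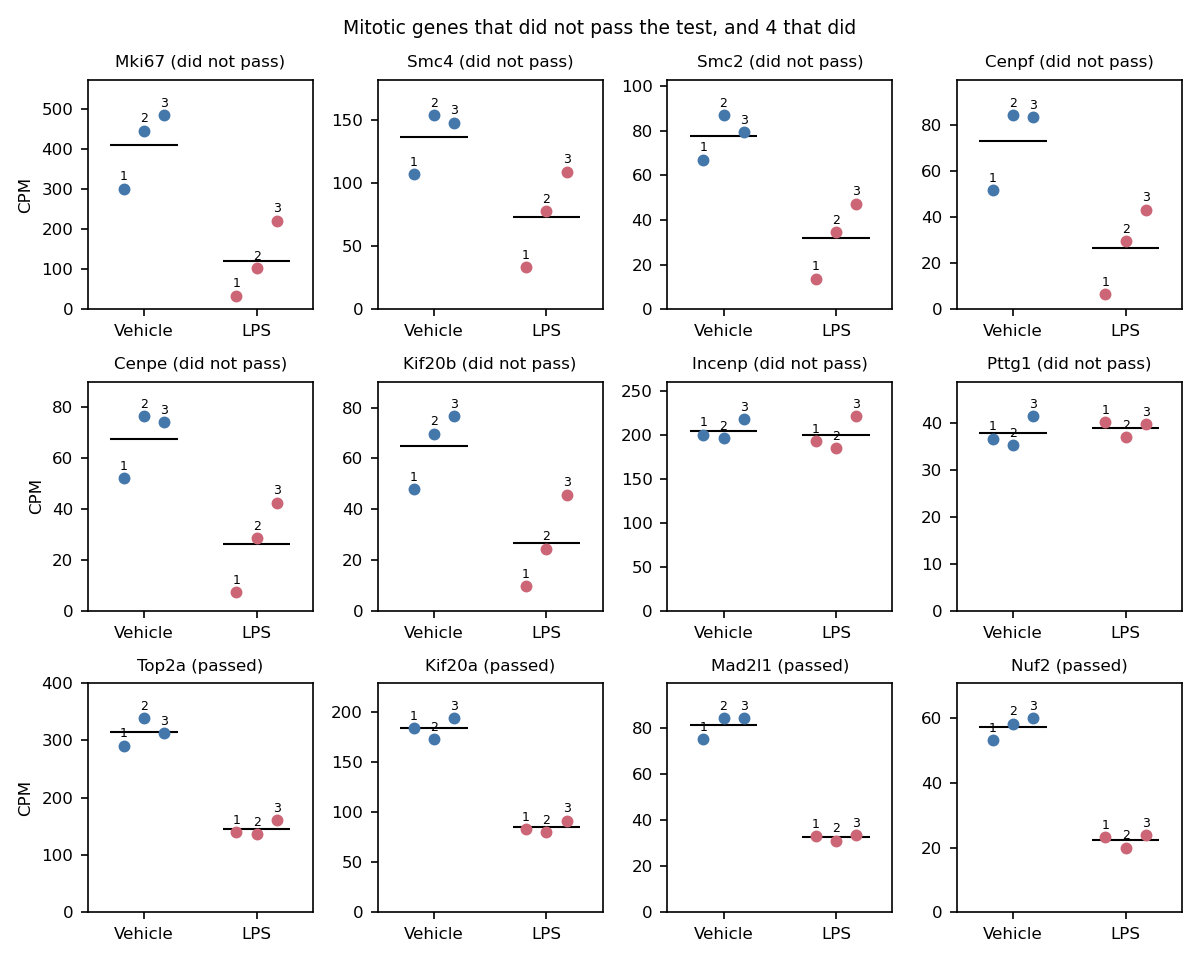
CPM in each library (points, numbered by replicate; bars are group means; axes start at 0) for the 8 mitotic genes that did not pass the test and for Top2a, Kif20a, Mad2l1 and Nuf2, which did. LPS 1 is the lowest point for Mki67, Smc4, Smc2, Cenpf, Cenpe and Kif20b, while the LPS points of the bottom row lie close together.

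Transcript composition moved with these values, and its part in the result was not tested beyond the offsets given here. Across the 56 genes, the log2 ratio of LPS 3 to LPS 1 had a Spearman's rho of -0.44 with the GC share of the longest transcript and 0.48 with its length. The ratio of Vehicle 2 to Vehicle 1, within the Vehicle group, had -0.74 and 0.47, the strongest GC value of any pair within a group. Vehicle 3 to Vehicle 1 had -0.56 and 0.43, and LPS 3 to LPS 2 had -0.55 and 0.48. The trend did not hold in every pair: LPS 2 to LPS 1 had -0.05 and 0.25. Vehicle 3 to Vehicle 2 went the other way, with 0.34 and -0.08. The log2 fold change with LPS had 0.57 and -0.49, so members with AT-rich or long transcripts had the lower values. Over 10463 tested genes with at least 5 CPM in Vehicle, these last values were 0.24 and -0.06. Among such genes the ratio of LPS 3 to LPS 1 had -0.07 with GC and 0.31 with length (10444 genes). Their ratio of Vehicle 2 to Vehicle 1 had -0.33 and 0.08 (10462 genes), so trends between libraries were not limited to the members. The points share libraries and genes are not independent replicates, so these are descriptions. The median GC share was 46% in the members and 49.5% in all tested genes. With offsets that flattened each library against GC and length, an alternative added after seeing the data, 47 members were lower with a median of -0.90, and Ckap2l lost its call (adjusted p from edgeR = 0.0579).

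Levels were compared between genes as CPM per kilobase of the longest annotated transcript, which understates genes with a long minor isoform. In Vehicle the highest means were 115 for Cdc20, 90.5 for Ube2c, 74.2 for Aurka, 68.1 for Plk1 and 61.0 for Tpx2, and the lowest were 3.96 for Kif14 and 4.03 for Kif18a. In LPS Cdc20 was still highest, at 79.9 CPM per kilobase, followed by Incenp at 57.9, which stood seventh in Vehicle. Across members the log2 fold change had a Spearman's rho of 0.20 with the log2 of mean CPM in Vehicle, a description over 56 genes.

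Other genes of the pathway were counted in the same fit, beside the 10.9% of all tested genes called lower. Of 11 genes of mitotic entry 9 were lower and 0 higher, with a median of -0.78. They included Wee1, the kinase that restrains Cdk1, at 37.0 ± 1.63 CPM in Vehicle and 14.2 ± 2.35 CPM in LPS (SD, n = 3), and Ccna2, which encodes cyclin A2, with a log2 fold change of -1.26 ± 0.10. Of 33 further kinetochore and centromere genes 16 were lower and 1, Zwint, was higher (0.40, adjusted p from edgeR = 0.0111), with a median of -0.54. Cenps and Ska2, part of the Ska complex that couples kinetochores to microtubules, had -1.58 ± 0.23 and -1.44 ± 0.14. Of 32 tested further motors and spindle proteins 16 were lower and 0 higher, among them Mastl (-1.09 ± 0.27), the Greatwall kinase, and the minus-end motor Kifc1 (-1.03 ± 0.12).

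Of 18 genes of cohesin and condensin II 11 were lower, with a median of -0.63. Sgo2a, a protector of centromeric cohesin, and Ncapg2, a condensin II subunit, had -1.46 ± 0.38 and -1.39 ± 0.13. The count in this list was 6 without Vehicle 1, 4 without Vehicle 2, 4 without Vehicle 3, 7 without LPS 1 and 6 without LPS 2. In the list of the anaphase-promoting complex 4 of 17 genes were lower, with a median of -0.20, and 2 were lower without Vehicle 1, Vehicle 2 or LPS 1. The largest fall in this list was in Fbxo5, which encodes the inhibitor Emi1 and not a subunit, from 35.8 ± 0.87 to 10.6 ± 1.84 CPM (SD, n = 3). Of 13 genes of the DREAM and MuvB regulators, which act on late cell cycle promoters, 7 were lower and 1, E2f5, was higher (0.80). Foxm1, the transcription factor that works with MuvB at mitotic promoters, had 80.7 ± 12.2 CPM in Vehicle and 20.6 ± 8.73 CPM in LPS (SD, n = 3), a log2 fold change of -1.97 ± 0.28. Of 41 DNA replication genes 33 were lower and 0 higher, with a median of -0.75, including Rrm2, a subunit of ribonucleotide reductase (-1.30 ± 0.09). Replication and mitotic genes were thus lower in the same libraries, and differences between lists were not tested.

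**Figure D5:**
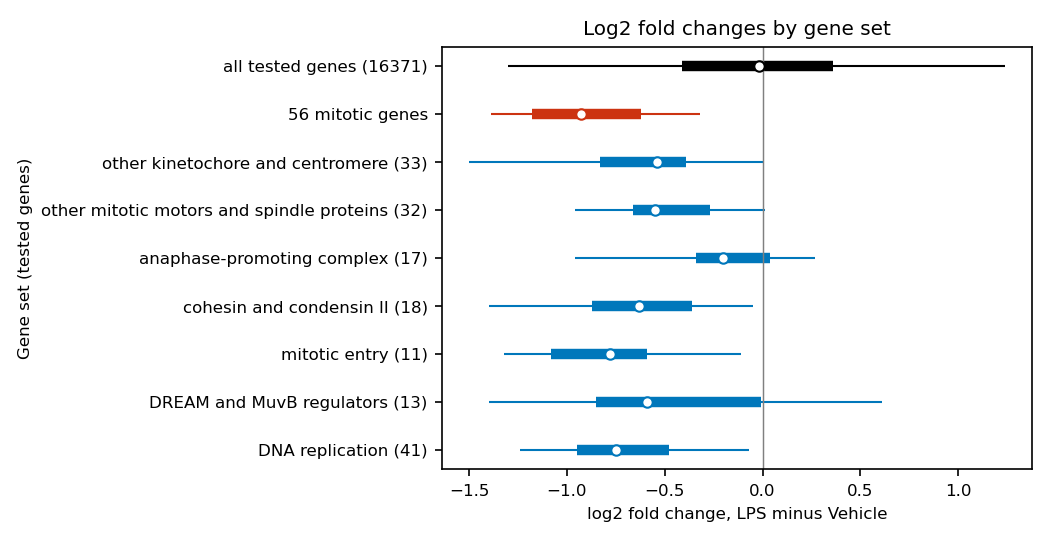
Log2 fold change of LPS minus Vehicle for all tested genes, the 56 mitotic genes and lists of related genes (open circle, median; thick bar, 25th to 75th percentile; thin line, 5th to 95th percentile; number of tested genes in brackets). The 56 mitotic genes have a median of -0.93, the lists of mitotic entry and DNA replication -0.78 and -0.75, and the anaphase-promoting complex -0.20.

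No source states that the library kit keeps strand, so reads from a stretch that genes on both strands share cannot be told apart. Overlap here is of whole gene spans, introns included, and exons were not compared. By the GENCODE annotation, 11 members overlap a protein-coding gene on the opposite strand: Bub3, Cdc20, Cdca8, Cenpk, Kif18a, Kif20a, Kif4, Ncapg, Nusap1, Prc1 and Ube2c. The values of these 11 are uncertain as far as the shared stretch lies in exons, which was not looked at. No member overlaps a protein-coding gene on its own strand. Counting genes of every type in the deposited table, 32 members overlap another gene. On their own strand Kif11 and Kif14 overlap processed pseudogenes. Anln, Incenp, Kif15, Kif20b, Ncapd2, Ndc80, Nusap1, Smc4, Top2a and Tpx2 overlap other annotated genes there, which include miRNA, snoRNA and rRNA genes.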

How the data were processed

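Oligo(dT)-selected RNA from BV2 was read on an Illumina NovaSeq as 3 Vehicle and 3 LPS libraries. The tools named per the submitters' processing notes are HISAT2, Bowtie2 2.2.8, DESeq2 and StringTie 1.3.1, without their roles. Build and annotation were not given in the sources used here. The deposited values are expected counts, estimated by the authors per gene and library. They were whole numbers, with pile-ups every 3.67 to 3.84 counts among low values, so 1 count is not 1 read. All 6 sample columns were mapped by name, and 0 columns were left unmapped.

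Symbols, transcript lengths and GC came from GENCODE vM21 by Ensembl identifier, with 55141 of 55401 identifiers matched, and promoter windows from RefSeq. Genes were tested with edgeR 4.0.16 (R 4.3.3): filterByExpr (minimum count 10, total 15), TMM, robust quasi-likelihood F-test, two-sided, Benjamini-Hochberg over all tested genes, threshold 0.05. The SE is the log2 fold change over the square root of F. Alternatives used limma 3.58.1, DESeq2 1.42.0, other scalings and filters, the spacing, a replicate block, and omission of each library. Figures were drawn with matplotlib 3.10.9. The fitting code was tested on simulated data.

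The members, roles and lists were chosen with earlier results of these data known. In each role the 3 called members with the largest changes are given by library, with Mki67, Top2a, Plk1, Aurkb, Bub1, Kif11, Ndc80 and Cdc20 whatever their result. Other members are given in part, those that did not pass and those with tight groups having been chosen after their values were seen. Related lists are represented by up to 3 called genes with the largest changes.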

Additional observations from a re-analysis of the deposited data

How the results depend on the processing

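Under the 17 alternatives, the number of the 56 mitotic genes lower with LPS was 46 to 51 with all libraries and 38 to 49 with 1 left out, the number higher was 0, and their median log2 fold change was -1.02 to -0.90. Of the 56, 54 had a negative log2 fold change throughout. Pttg1 turned to -0.04 with total counts only and to -0.00 without Vehicle 2, and ranged up to 0.11 with 1 library left out. Incenp ran from -0.12 to 0.02 with 1 library left out, turning to 0.01 without Vehicle 3 and 0.02 without LPS 2. With DESeq2, 2 proliferation markers were lower in place of 1, the added call being Mki67. Leaving out 1 library gave 3 to 5 checkpoint genes, 3 to 6 spindle assembly genes, 2 to 5 genes of the anaphase-promoting complex list and 4 to 12 of cohesin and condensin II lower. Over all tested genes it gave 1053 to 2085 lower and 1291 to 2450 higher. Total counts moved the median of all genes to -0.10, and 42.2% of changed genes were then higher, against 53.9%. The cause of these changes was not tested; omission leaves fewer samples.

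Same-numbered libraries deviated from their group means with correlations of 0.073, 0.045 and 0.058. These were small, although each library correlated best with its own number. The labels do not say whether equal numbers mark pairs, so the block was run as an alternative only. With the replicate block 48 members were lower: Kif20b and Smc2 gained a call, Spc25 and Bub1b lost it. The lowest member mean was that of Cenpk, at 11.3 CPM in Vehicle and 5.44 CPM in LPS. Across libraries 1 CPM was worth from 47.35 counts (Vehicle 3) to 60.47 counts (Vehicle 1), and 1 count is not 1 read. The part of depth was not tested. Having 3 libraries per group also limits precision.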
